A study of Mus musculus with 8 samples.

Results

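The 9 genes described here encode enzymes that dispose of ammonia and break down amino acids in the liver. They are the urea cycle enzymes Cps1, Otc, Ass1, Asl and Arg1, glutamine synthetase (Glul), and the amino acid catabolic enzymes Tat, Hpd and Tdo2. They were taken by symbol from a table of RNA-seq counts for 21983 genes, and all 9 were found. The table covers 8 libraries of AML-12, an established mouse hepatocyte line that was derived from a mouse carrying a transforming growth factor alpha transgene. The 4 control libraries came from cells with pLKO.1, a lentiviral backbone, and carry the genotype label WT. The other 4 came from cells in which GM47544 was overexpressed, and their labels name no vector. Cells of both groups were kept in DMEM with 10% fetal bovine serum and antibiotics, and the labels name no hormone, no time point and no clone. They leave unsaid whether replicate libraries are from separate cultures, and the p-values reflect only the variation among these libraries, possibly technical. The comparison asks which of the enzyme transcripts differed under overexpression. GM47544 itself was not analysed here, so the labels could not be checked by its level.

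The urea cycle turns toxic ammonia into urea. Cps1 and Otc act in the mitochondrion and make carbamoyl phosphate and citrulline, and Ass1, Asl and Arg1 act in the cytosol and make argininosuccinate, arginine and urea. Liver expresses these genes mainly in hepatocytes around the portal vein, whereas Glul, which fixes ammonia into glutamine, marks the hepatocytes around the central vein and is a known target of Wnt signalling. Tat and Hpd catalyse successive steps of tyrosine breakdown, and Tdo2 opens the kynurenine pathway of tryptophan. Tat is a classic gene of the glucocorticoid response, and all 3 are markers of the mature hepatocyte.

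Most of these genes were almost silent in both groups, and for Otc and Ass1 the reads of all 8 libraries came to 2 each. Glul and Asl were well expressed, Tat was at about 1 CPM (counts scaled to library size), and the other 6 had mean levels under 1 CPM in both groups. Asl fell in the overexpression libraries, Glul and Tat did not pass the test, and Cps1 and Arg1 had a few reads in the overexpression libraries and next to none in controls. Of the 9 genes, 3 passed the filter on low counts and were tested, and 1 of these (Asl) changed. For comparison, 64.4% of the 11520 genes that were tested changed, 32.3% being higher and 32.1% lower. Calls were made with edgeR's quasi-likelihood (QL) test where the Benjamini-Hochberg adjusted p fell under 0.05. The 1 call among 3 is therefore no more than the share of all genes. In bulk RNA, a smaller share of cells that express a gene and less RNA per cell cannot be told apart.

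The stretches of 250 bases before the RefSeq start of Glul, Ass1 and Otc are shown because these genes span the range of levels, from the most abundant transcript of the 9 to 2 that were at or below 3 counts in each group. They are from RefSeq on GRCm38.p6, read 5′ to 3′ on the gene's strand (plus for all 3), with each CG dinucleotide in capitals.
Glul, chr1:153899679-153899928: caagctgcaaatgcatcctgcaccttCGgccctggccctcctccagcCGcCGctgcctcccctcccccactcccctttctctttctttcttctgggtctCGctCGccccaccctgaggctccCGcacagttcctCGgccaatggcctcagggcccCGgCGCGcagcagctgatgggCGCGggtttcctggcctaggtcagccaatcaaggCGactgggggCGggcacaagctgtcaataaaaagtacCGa
Ass1, chr2:31470020-31470269: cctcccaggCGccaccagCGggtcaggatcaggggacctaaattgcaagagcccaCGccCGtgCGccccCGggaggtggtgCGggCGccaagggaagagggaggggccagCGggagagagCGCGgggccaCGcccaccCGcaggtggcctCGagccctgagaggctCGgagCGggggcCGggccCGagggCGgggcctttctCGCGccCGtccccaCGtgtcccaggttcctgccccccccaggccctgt
Otc, chrX:10252055-10252304: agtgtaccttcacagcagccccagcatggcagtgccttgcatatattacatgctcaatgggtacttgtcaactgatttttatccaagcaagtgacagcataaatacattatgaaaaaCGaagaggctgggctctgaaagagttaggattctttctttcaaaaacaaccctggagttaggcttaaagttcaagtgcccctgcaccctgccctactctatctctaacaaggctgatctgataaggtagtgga

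The Glul stretch held 15 CG dinucleotides, the Ass1 stretch 23 and the Otc stretch 1. Of 27025 promoters of the same length, 27.5% had at least as many as Glul, 13.0% at least as many as Ass1 and 91.7% at least as many as Otc. RefSeq starts were matched for 6 of the 9 genes, and Tat, Tdo2 and Hpd had 3, 3 and 7. The median was 16 over 9095 tested genes with a promoter in the table, 5 over 3380 genes with counts that were not tested, and 2 over 4026 genes with 0 counts in every library. Glul, a tested gene, was close to the median of its class. Otc and Ass1 belong to the genes with counts that were not tested, and lay below and above the median of that class. These are descriptions of the letters in each window. The Ass1 window ends at 31470269, past the start at 31470207 in GENCODE M21, the annotation used for the gene positions given below.

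Library totals lay between 12256376 and 18965662 counts in controls and between 11016907 and 17338310 in overexpression libraries, and did not differ detectably (two-sided exact permutation test, p = 0.343). The first principal component held 82.5% of the variance and separated the groups. On this axis the overexpression libraries spanned 43.5 to 50.4, 3 controls spanned -60.7 to -50.0, and control library 3, at -22.2, was nearest to the overexpression libraries. The 15 hepatocyte markers in the data summed to between 2196 and 2706 CPM in controls and between 1715 and 1815 in overexpression libraries. Ttr made up 38.0% of this sum, and without it the order turned, with 1044 to 1161 CPM in controls and 1403 to 1535 with overexpression. Of these markers 12 were tested, with 6 called higher and 4 lower, against 32.3% and 32.1% of all tested genes. Fga (19 control and 168 overexpression counts) and Fgb (27 and 187), both called higher, passed the count filter only through the overexpression libraries. Trf (79 and 36), called lower, passed only through the controls. Alb was at 22.3 ± 3.85 CPM in controls and 266.6 ± 28.2 in overexpression libraries, Ttr at 1320 ± 239 and 278 ± 24.2 in the same order (SD, n = 4), and Cyp3a11 had no counts. The other marker lists moved with the groups, and their part in the results was not tested. The 10 cholangiocyte and progenitor markers summed to between 2896 and 4285 CPM in controls and between 4611 and 5230 in overexpression libraries. Of these Spp1 rose from 942 ± 209 to 2729 ± 114 CPM, while Krt19 fell from 2252 ± 569.6 to 1700 ± 142 CPM (SD, n = 4) and Sox9 fell too. For the 10 fibroblast and stellate markers the sums were 3.62 to 5.47 and 9.85 to 17.5 CPM, with Col1a2, Col3a1, Lrat and Lum at 0. Des made up 83.4% of this sum, and without it the sums were 0.50 to 1.15 and 1.71 to 2.38 CPM. The 9 endothelial markers summed to 0.437 to 1.501 and 3.31 to 4.24 CPM. The 7 kidney tubule markers summed to 3382 to 5103 and 499.7 to 1571 CPM, of which Aqp1 made up 99.7%, with Umod at 0. Without Aqp1 the kidney sums were 2.30 to 3.15 and 9.53 to 15.4 CPM, with 2 markers called higher and 1 lower of 3 tested over the list. Lrp2 (11 control and 82 overexpression counts), called higher, passed the count filter only through the overexpression libraries. The 10 macrophage markers summed to 830 to 1294 and 601 to 749.9 CPM, of which Cd14 made up 97.3%.

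**Figure D1:**
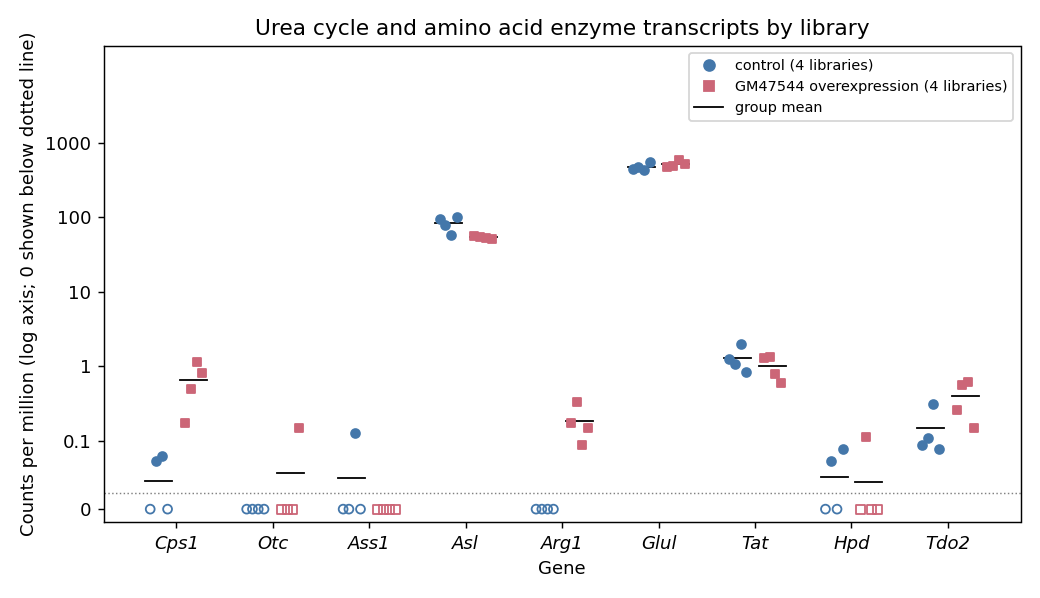
CPM (log axis, zeros as open symbols below the dotted line) of the 9 enzyme genes in the 4 control and 4 overexpression libraries, each library 1 point in replicate order from left to right, with the group mean as a line. Glul lies between 427 and 588 CPM in every library, Asl between 51.6 and 102, and Otc, Ass1 and Hpd show mostly zeros.

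Compared per length, the order of the transcripts was set by Glul, Asl and Tat. Glul was at 143 ± 15.8 RPKM (CPM per kilobase of exon) in controls and 156 ± 14.5 in overexpression libraries, and Asl at 17.2 ± 4.02 and 11.1 ± 0.444 (SD, n = 4). Tat was at 0.536 ± 0.208 and 0.414 ± 0.151 RPKM (SD, n = 4). The values of these 3 genes did not overlap each other in any library. Glul ranked 260 by mean RPKM among 11491 tested genes with a known length, Asl was above 66.3% of them and Tat above 5.65%, with a median of 8.15 RPKM. Cps1, Tdo2 and Arg1 came next in the overexpression libraries, at 0.118 ± 0.0745, 0.101 ± 0.0576 and 0.0828 ± 0.0465 RPKM (SD, n = 4). The values of these 3 overlapped, so their order is not resolved. In controls Tdo2 was at 0.0377 ± 0.0287 RPKM, Hpd at 0.0153 ± 0.0182 and Ass1 at 0.0129 ± 0.0259 RPKM (SD, n = 4), again with overlapping values.

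**Figure D2:**
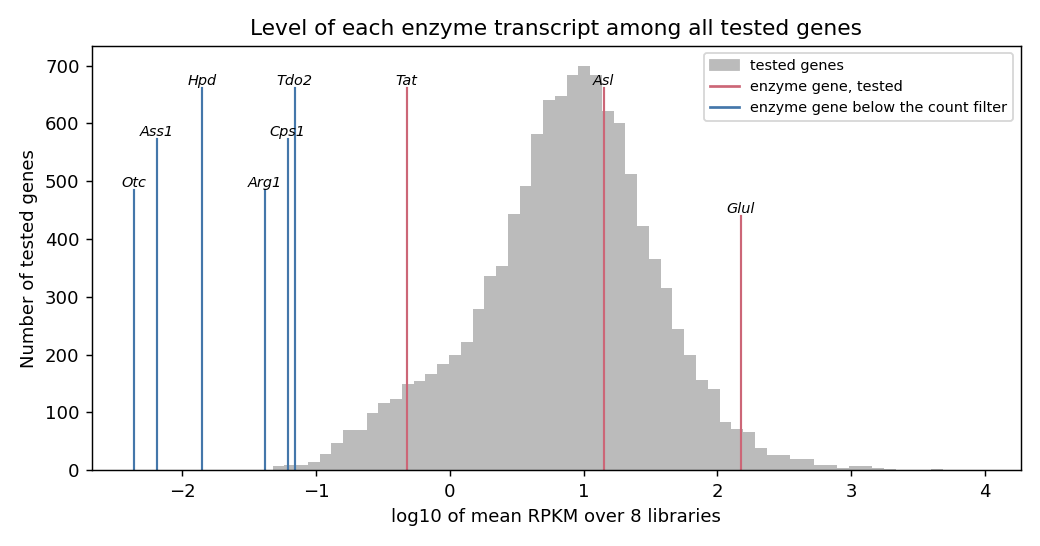
Distribution of the log10 mean RPKM over 8 libraries for the tested genes with a known length (grey bars, number of genes), with the 9 enzyme genes as lines that differ in height only to separate the names. Glul lies in the upper tail, Asl near the centre at 14.2 RPKM and Tat in the lower tail, while the 6 genes below the count filter lie at or beyond the lower edge.

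Asl, argininosuccinate lyase (chromosome 5, 130011258 to 130029247, GRCm38, minus strand, 4831 exonic bases), was the urea cycle enzyme with reads in every library. The 4 controls had 94.2, 78.9, 57.6 and 102 CPM, from 1065, 1472, 922 and 1323 counts. The 4 overexpression libraries had 56.5, 54.1, 52.7 and 51.6 CPM, from 660, 983, 605 and 693 counts. The groups did not overlap, which held for 55.9% of all tested genes (28.5% higher and 27.5% lower), but control library 3 lay just above the highest overexpression library while the other 3 controls lay well above it. The means were 83.1 ± 19.4 and 53.7 ± 2.15 CPM (SD, n = 4), and the log2 fold change was -0.63 with an SE of 0.16 (edgeR QL test, adjusted p = 0.0035). The Asl log2 fold change was -0.265 once the trend of the libraries on GC content was removed, still past the threshold (edgeR, adjusted p = 0.00802, and 1.25e-07 to 0.014 over 17 alternatives). Without control library 3 it was -0.79. The genes whose levels followed Asl most closely over the 8 libraries were Lemd2, Usp5 and Trim28 (Pearson r = 0.998 for each, of 9196 genes with at least 10 CPM), and this likeness includes the difference between the groups.

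Cps1, carbamoyl phosphate synthetase of the mitochondrion and the entry enzyme of the cycle (chromosome 1, 67123026 to 67231259, plus strand), had 0, 1, 1 and 0 counts in the 4 controls. The overexpression libraries had 2, 9, 13 and 11 counts, or 0.171, 0.495, 1.13 and 0.819 CPM. The groups did not overlap, and overexpression library 1 lay far below the other 3. The ratio of 35 to 2 counts at equal depth was 18.9 (95% exact interval 4.85 to 162, counting error only). Cps1 did not pass the count filter, and in the fit without a filter it rose by 3.93 in log2 fold change, with an SE of 0.84 (edgeR QL test, adjusted p = 0.000389). In that fit 48.6% of 16281 genes changed, 24.5% being higher and 24.2% lower, and the 9 enzymes had 2 genes higher (Cps1 and Arg1) and 1 lower (Asl), near those shares.

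Arg1, the arginase that releases urea (chromosome 10, 24915221 to 24927484, minus strand), had 0 counts in all 4 controls and 2, 6, 1 and 2 counts in the overexpression libraries. Against a floor of 3 counts over the control group, which is 0.0508 CPM, it was at least 3.95-fold higher, with the overexpression counts taken as exact. Arg1 rose in the fit without a filter (adjusted p = 0.00857 by the edgeR QL test, and 0.00152 to 0.0466 over 15 alternatives). Of the 16281 genes with at least 1 count, 22.2% had all overexpression values above all controls, and Cps1 and Arg1 were among them. Macrophages also express Arg1. Of the 10 macrophage markers 4 were tested, none rose and 2 fell (Cd14 and Csf1r), Adgre1 and Clec4f were at 0 in every library, and Itgam, below the filter, had 10 control and 63 overexpression counts. The part of such cells in the Arg1 result was not tested. Arg2, the mitochondrial arginase, had 3 counts in controls and 5 in overexpression libraries.

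Otc and Ass1 were at or below the floor of 3 counts in each group, so no fold is given. Otc, ornithine transcarbamylase (chromosome X, 10252305 to 10321024, plus strand), had 2 counts in overexpression library 4 and none elsewhere. Ass1, argininosuccinate synthetase (chromosome 2, 31470207 to 31520672, plus strand), had 2 counts in control library 3 and none elsewhere. Control counts of 0 allow Otc a level of up to 0.0508 CPM, and overexpression counts of 0 allow Ass1 up to 0.0548 CPM, for counting error only. The Ass1 value is uncertain, because Gm5424, a processed pseudogene in the annotation, matched bases 203 to 1442 of its 1696-base transcript at 99.5% identity. How reads from that stretch were counted is not known here, and 26.9% of the Ass1 transcript lay outside the match. Cps1, Otc, Asl, Arg1, Tat, Hpd and Tdo2 had no such copy among the annotated transcripts, at 80% identity over at least 100 bases.

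Glul, glutamine synthetase (chromosome 1, 153899944 to 153909723, plus strand), was abundant and did not pass the test. Its controls had 451, 475, 427 and 548 CPM and its overexpression libraries 480.0, 492, 588 and 515 CPM, with overlapping groups. The means were 475 ± 52.4 and 518 ± 48.3 CPM (SD, n = 4), and the log2 fold change was 0.13 (SE 0.12, approximate 95% interval -0.10 to 0.35, adjusted p = 0.35 by the edgeR QL test). The Glul log2 fold change passed the threshold with library totals alone (0.26, adjusted p = 0.0473 in edgeR) and after removal of the length trend (0.30, adjusted p = 0.022), with a range of adjusted p from 0.022 to 0.709 over 17 alternatives. Glul counts are in part uncertain, since Glns-ps1, a processed pseudogene, matched 1126 of the 2792 bases of its transcript at 96.8% identity, and Teddm2 shares 116 exonic bases on the other strand. Genes most like Glul over the 8 libraries were Rab11fip3, Rara and Baiap2 (Pearson r = 0.92, 0.913 and 0.913, of 9196 genes). Together the 9 genes took 534 ± 46.2 CPM of the library totals in controls and 601 ± 47.5 with overexpression (SD, n = 4), of which Glul made up between 82.5% and 91.4%. Without Glul the sums were 80.3 ± 14.5 and 58.6 ± 2.43.

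The 3 catabolic enzymes were low in both groups. Tat, tyrosine aminotransferase (chromosome 8, 109990437 to 109999803, plus strand), had 1.24, 1.07, 2.00 and 0.845 CPM in controls and 1.28, 1.32, 0.784 and 0.595 CPM in overexpression libraries, with overlapping groups. Its log2 fold change was -0.36 (SE 0.35, approximate 95% interval -1.05 to 0.34, adjusted p = 0.391 by the edgeR QL test). Control library 3 was highest, and without it the Tat log2 fold change was -0.075. Tdo2, tryptophan dioxygenase (chromosome 3, 81957090 to 81976202, minus strand), had 1, 2, 5 and 1 control counts and 3, 10, 7 and 2 overexpression counts, which overlapped. The ratio of 22 to 9 Tdo2 counts at equal depth was 2.63 (95% exact interval 1.17 to 6.50, counting error only), and it did not pass in the fit without a filter (edgeR QL test, log2 fold change 1.32 with an SE of 0.68, adjusted p = 0.116). Without control library 3 the Tdo2 log2 fold change was 1.95 and passed (edgeR, adjusted p = 0.0479), and it also passed in limma-voom (adjusted p = 0.0477), against a highest value of 0.304 over 15 alternatives. Hpd, which converts hydroxyphenylpyruvate (chromosome 5, 123171807 to 123182727, minus strand), had 2 counts in each group, under the floor.

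**Figure D3:**
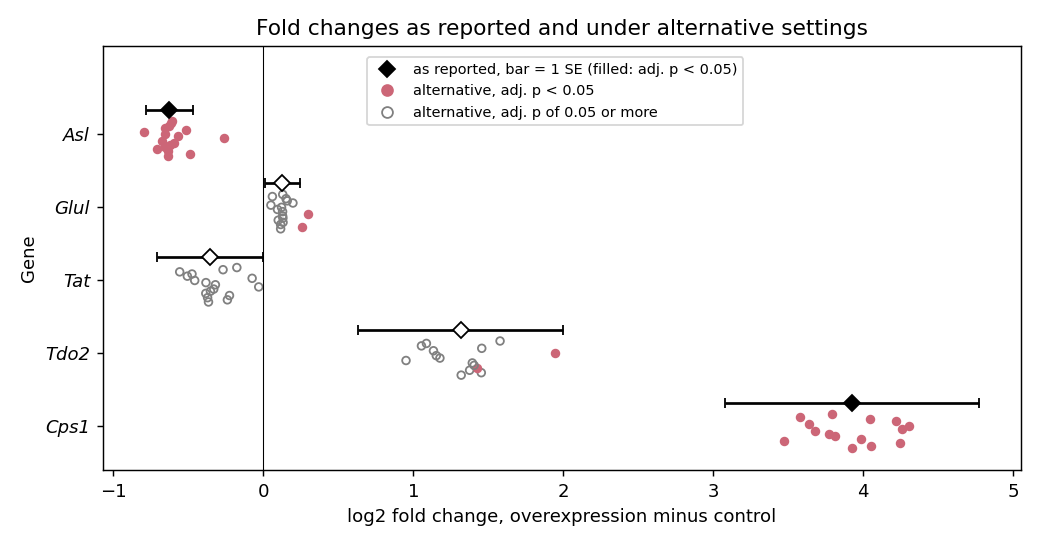
Log2 fold changes (overexpression minus control) of Asl, Glul, Tat, Tdo2 and Cps1 as reported (diamonds, bars of 1 SE) and under each alternative (circles, filled where the adjusted p is below 0.05), Tdo2 and Cps1 being fitted without a filter on low counts. Asl stays between -0.79 and -0.265, Glul between 0.05 and 0.30, and Tat between -0.56 and -0.03.

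Other genes that feed or surround the urea cycle were measurable in part. Over the 14 lists described from here on, which overlap, 112 different genes were tested, and 66.1% of them changed, against 64.4% of all tested genes. Of the 112, 23.2% rose and 42.9% fell, against 32.3% and 32.1% of all tested genes, and this difference was not tested. Of 17 listed genes of the urea cycle and ammonia handling, including 6 of the enzymes above, 9 were tested, 1 rose and 5 fell (median log2 fold change -0.41, against 0.000406 over all tested genes). Aldh18a1, which makes the precursor of ornithine and proline from glutamate, was at 174 ± 25.5 CPM in controls and fell to 85.3 ± 2.73 (SD, n = 4), a log2 change of -1.02. Slc25a12, a mitochondrial aspartate carrier, fell from 89.8 ± 5.55 to 64.0 ± 2.20 CPM, and Gls2, the liver glutaminase that releases ammonia, from 21.0 ± 1.99 to 13.99 ± 0.865 CPM (SD, n = 4). The ornithine carrier Slc25a15 fell by 0.41 on the log2 scale, and Glud1, glutamate dehydrogenase, rose from 400.3 ± 16.01 to 492 ± 36.4 CPM (SD, n = 4). Nags, which makes the activator of Cps1, had 0 control and 6 overexpression counts, and the ammonia channel Rhbg had none. Aspartate and alanine aminotransferases, which pass amino groups to the cycle, fell for all 4 tested members (median -0.78), with Got2 at 288 ± 51.7 against 155 ± 14.9 CPM and Gpt at 86.2 ± 20.6 against 43.9 ± 2.23 CPM (SD, n = 4).

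Of the tyrosine list, 7 of 9 genes were tested, 2 rose and 3 fell. Qdpr and Pcbd1, which regenerate tetrahydrobiopterin, fell by 1.23 and 0.71 on the log2 scale, the Pcbd1 value being 0.12 and not called after removal of the length trend. The list median was -0.36 and turned to 0.12 in that setting. Of the kynurenine list, 5 of 12 were tested and 1 rose (median 0.26). The riser was Aadat, an aminotransferase of the pathway, at 0.410 ± 0.161 against 2.50 ± 0.182 CPM (SD, n = 4). With 24 control and 138 overexpression counts, Aadat passed the count filter only through the overexpression libraries.

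**Figure D4:**
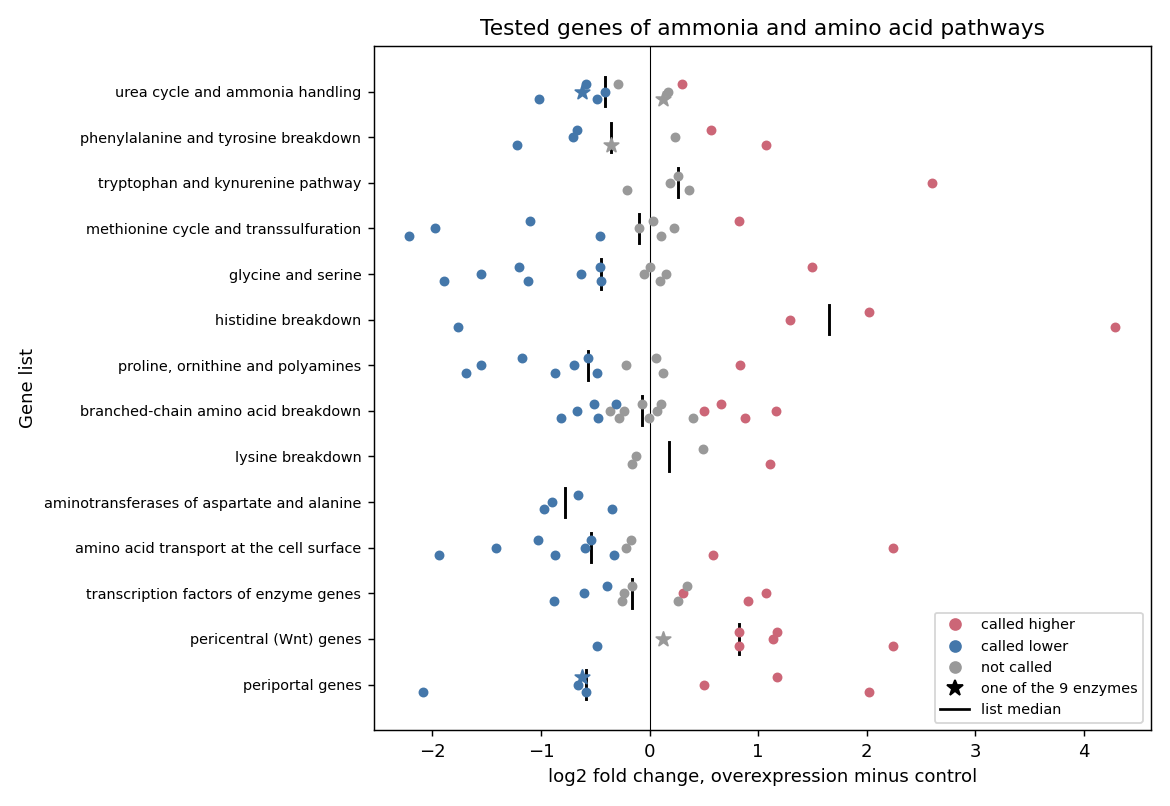
Log2 fold changes (overexpression minus control) of the tested genes of 14 lists, each gene a point coloured by its call, stars for the 9 enzymes and a bar for the list median. The 4 aminotransferases all lie below zero, and histidine breakdown and pericentral genes have medians of 1.65 and 0.82. Each histidine gene passed the count filter only through the group where it was higher.

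Histidine breakdown was measurable only at low levels. All 4 genes were tested, 3 rose and 1 fell. Ftcd, which closes the pathway, had 0.104 ± 0.122 CPM in controls and 2.14 ± 0.262 with overexpression (SD, n = 4), a log2 fold change of 4.29, and Hal, which opens it, 0.396 ± 0.264 and 1.62 ± 0.513 CPM (SD, n = 4). Uroc1 rose by a log2 fold change of 1.29 and Amdhd1 fell by 1.77 on the log2 scale. Ftcd (6 control and 119 overexpression counts), Hal (23 and 88) and Uroc1 (43 and 97) passed the count filter only through the overexpression libraries. Amdhd1 (127 and 34) passed only through the controls, so all 4 calls rest on low counts in the other group. With a filter of at least 1 CPM in 4 libraries, 2 genes of the list were called higher.

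In the glycine and serine list 1 of 12 tested genes rose and 7 fell (median -0.45), Shmt2, the mitochondrial serine hydroxymethyltransferase, falling from 309 ± 73.1 to 83.0 ± 8.83 CPM (SD, n = 4) and Psph and Psat1 having log2 fold changes of -1.55 and -1.12. In the proline, ornithine and polyamine list 1 of 11 rose and 7 fell (median -0.57). Odc1, which uses ornithine to make putrescine, fell from 172 ± 17.7 to 76.3 ± 10.3 CPM (SD, n = 4), and Srm and Pycr1 had log2 fold changes of -1.69 and -1.55. With the length trend removed, 4 genes of this list fell. In the methionine and transsulfuration list 1 of 9 rose and 4 fell (median -0.09), Cth, which makes cysteine, falling from 46.8 ± 9.03 to 11.9 ± 1.15 CPM (SD, n = 4), with Ahcy at -1.10 and Csad, of taurine synthesis, at 0.82. Mat1a, also called lower, had 78 control and 15 overexpression counts and passed the count filter only through the controls. With a filter of at least 1 CPM in 4 libraries, 3 genes of this list fell.

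Breakdown of the other amino acids went both ways. In the branched-chain list 4 of 17 tested genes rose and 5 fell (median -0.07), with Aldh6a1 at a log2 fold change of 1.16 and Mcee and Bckdhb at -0.82 and -0.67. The calls on Mcee and Bckdhb were lost with the trend on gene length removed (log2 fold changes -0.08 and -0.19; edgeR, adjusted p = 0.594 and 0.176, which are the maxima over 17 alternatives, with minima of 1.35e-08 and 7.98e-08). In the lysine list 1 of 4 rose, Pipox, an oxidase of pipecolic acid, from 13.1 ± 0.593 to 28.4 ± 4.76 CPM (SD, n = 4). Aass of this list, below the count filter, had 38 control and 5 overexpression counts. Without a filter 1 lysine gene was called higher and 1 lower. Among amino acid transporters 2 of 11 rose and 7 fell (median -0.54). Slc7a5 and Slc1a5, carriers of large neutral amino acids and of glutamine, fell from 166 ± 27.0 to 43.2 ± 3.12 and from 131 ± 18.6 to 49.0 ± 2.02 CPM (SD, n = 4). Slc1a2, a glutamate carrier, rose from 15.5 ± 2.48 to 73.3 ± 10.1 CPM (SD, n = 4). Of the arginine carriers on the list, Slc7a2 had no counts and Slc7a1 fell from 110.6 ± 8.73 to 60.5 ± 0.769 CPM (SD, n = 4).

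Glul belongs to the genes of the pericentral zone. Of the 17 listed pericentral genes 7 were tested, 5 rose and 1 fell (median 0.82), and Glul was the 1 not called. Slc1a2 is also on this list, and the Wnt feedback ligases Znrf3 and Rnf43 rose from 54.5 ± 10.9 to 120 ± 9.11 and from 38.4 ± 3.78 to 68.0 ± 5.81 CPM (SD, n = 4). Axin2, a general Wnt target, had 0 control and 2 overexpression counts. Of the 17 genes, 5 had 0 counts in every library (Tbx3, Sp5, Nkd1, Notum and Rhbg). Of the 15 periportal genes, which include Cps1, Ass1, Asl and Arg1, 7 were tested, 3 rose and 4 fell (median -0.59). Without Asl, the only one of the 9 enzymes tested in it, the list median was -0.04, with 3 higher and 3 lower. Hsd17b13, a lipid droplet protein, and Sox9, a transcription factor of bile duct cells, had log2 fold changes of -2.08 and -0.66. The difference between Glul and these genes was not tested.

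Transcription factors known to act on the enzyme genes were present. Of 11 tested, 3 rose and 3 fell (median -0.17, which turned to 0.13 with the GC trend removed). Hnf4a, a main regulator of hepatocyte genes, was at 348 ± 23.7 and 310.1 ± 4.51 CPM (SD, n = 4) and was not called (log2 fold change -0.17, adjusted p = 0.15 by the edgeR QL test). Nr3c1, the glucocorticoid receptor, rose from 87.9 ± 29.8 to 165 ± 7.81 CPM and Creb1 from 44.1 ± 14.8 to 92.9 ± 2.37 CPM, while Klf15 fell from 56.2 ± 8.64 to 36.8 ± 0.721 CPM (SD, n = 4). In control library 3 Nr3c1 was at 132 and Creb1 at 66.3 CPM, above the other controls. Foxa1, a pioneer factor of liver genes, had 42 counts over the controls and none with overexpression, which against the group floor of 3 counts is at least 13.0-fold lower. That bound takes the control counts as exact.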

How the data were processed

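Trizol was used to isolate the RNA and an NEBNext Ultra kit to prepare the libraries, per the labels' protocols. What the authors deposited is a single matrix of raw counts, whole numbers by gene symbol and not normalized. The submitters' processing notes name FastQC, STAR, HTSeq and the build mm10. Tool versions, the annotation and the strand setting used upstream were not given in these sources. Titles supplied both group and replicate number.

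The analysis used edgeR 4.0.16 under R 4.3.3, with filterByExpr (minimum count 10), trimmed-mean scaling, and the two-sided quasi-likelihood test of the group term (no covariate), Benjamini-Hochberg adjusted over all 11520 tested genes and called at 0.05. SE was the log2 fold change over the square root of F. Genes below the filter were taken from the same fit on all 16281 genes with a count. Positions, lengths and overlaps are from GENCODE M21 (GRCm38, 21926 symbols matched), promoters from RefSeq, and copies were sought with blastn. RPKM was computed from scaled CPM and exonic length, and levels were compared as log2(CPM + 1) for likeness between genes. Length and GC trends used lowess (span 0.3), GC being that of the longest transcript. DESeq2 1.42.0 and limma 3.58.1 were alternatives. The members and lists were chosen with earlier results of these data known, so no test was made on the lists or on the summed level of the 9 genes, for which a permutation test had been planned. Named genes were all 9 members and up to 3 called genes with the smallest p of each list; other list genes were named after their values were seen. Some genes that this rule names are not reported here. The fit was checked on simulated counts. Library pairs within a group differed by a chi-square per gene of 2.44 to 106, so none matched within counting noise.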

Additional observations from a re-analysis of the deposited data

Results flagged for a closer look

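Among 82 groups of 4 libraries examined, for the 9 enzymes and the named list genes, 6 held a library whose gap to the next was large for the range of its group, and chance flags about 5% of such groups. None was one of the 9 enzymes. Control library 3 stood apart for the transcription factors Creb1, at 66.3 CPM against 35.8 to 37.2 in the other controls, and Nr3c1, at 132 against 67.6 to 76.4 CPM. Control library 4 had Sox9 at 105 CPM against 85.2 to 88.0. Overexpression library 1 had Pcbd1 at 90.0 CPM against 102 to 104, Srm at 32.1 CPM against 25.9 to 26.9, and Slc7a5 at 47.9 CPM against 41.4 to 41.8.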

How the results depend on the processing

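The fall of Asl and the counts of all genes called held under all 17 alternatives (6659 to 9001 genes, both ends when 1 library was left out). The number of enzymes called higher, 0 as reported, was 1 with library totals alone and 1 with the length trend removed (Glul, log2 fold changes 0.257 and 0.297) and 2 without a filter (Cps1 and Arg1); 1 was called lower in each. Library totals shifted the median of all genes by 0.128. The Tdo2 log2 fold change was 1.42 in limma-voom and 1.05 to 1.95 with 1 library left out. Cps1 and Arg1 kept their calls in 15 alternatives fitted without a filter, a choice made after seeing the data. The summed level of the 9 enzymes was 66.7 CPM higher with overexpression, 14.8 with scaled library sizes, -21.7 without Glul, and 43.6 to 86.7 with 1 library left out. Pcbd1 reversed to 0.115 with the length trend removed. Of 628 values of named list genes under alternatives, 2 lost their call and 1 reversed; of 476 list counts, 41 moved by over 1.5 times. For these changes the cause was not tested. No likeness between libraries of the same replicate number was detected (same-number correlations -0.119 to 0.0227). This check cannot tell whether libraries of equal number were cultured or prepared together. With a replicate block the Asl log2 fold change was -0.60 and 1 enzyme was called lower. Depth limits Otc, Ass1 and Hpd, whose group means lay under the floor of 3 counts, about 0.05 CPM, so no fold was given. For Ass1 the match to Gm5424 limits the value too.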

Other observations

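Some genes of the lists lay below the count filter and were noticed only after their values were seen. Kynu, kynureninase, had 0 counts in the 4 controls and 4, 0, 5 and 5 in the overexpression libraries, which against the group floor of 3 counts is at least 5.03-fold higher. That bound takes the overexpression counts as exact. Agxt2, an aminotransferase of glyoxylate, had 1 control count and 17 overexpression counts. Going the other way, Ido2 of the kynurenine list had 13 control counts and 1 overexpression count, and Aass of the lysine list 38 and 5. For comparison, 24.5% of the 16281 genes fitted without a filter were called higher and 24.2% lower.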
